A study of Mus musculus with 6 samples.

Results

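The 10 genes described here form the core of the circadian clock: Per1, Per2, Per3, Cry1, Cry2, Arntl, Clock, Nr1d1, Nr1d2 and Dbp. They were found by symbol in the deposited gene table and matched to the read counts by gene ID, and all 10 were present among 37583 genes. The RNA came from cells of the mouse renal medulla that carry EGFP and were passed through 2 rounds of cell sorting. Mice underwent renal ischemia-reperfusion injury (IRI), an interruption of the blood supply followed by its return, or sham surgery, and kidneys were collected 2 h later. There were 3 IRI and 3 sham samples, each pooled from 4 kidneys of 2 mice aged 12 weeks, and all mice of both groups carried the B1 VATPase EGFP transgene, which marks intercalated cells, the acid- and base-moving cells of the collecting duct. The genotype entry of the labels also places EGFP under CX3CR1 and the tissue entry reads epididymis. The labels give no time of day for surgery or for collection.

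The clock is a feedback loop of transcription that runs in nearly every cell, the kidney tubule included, and takes about a day to complete. CLOCK and BMAL1, the protein of Arntl, bind E-box sequences and switch on the Per and Cry genes, Nr1d1, Nr1d2 and Dbp. PER and CRY proteins then return to the nucleus and inhibit CLOCK and BMAL1, while the nuclear receptors REV-ERBα and REV-ERBβ, made by Nr1d1 and Nr1d2, repress Arntl. Dbp encodes an activator that binds D-box sequences, and its transcript level swings widely over the day. In tissues with a running clock, Arntl transcripts peak at about the time when Dbp, Per and Nr1d transcripts are low. Per1 in particular can also be induced within minutes to hours by cyclic AMP signalling through CREB and by glucocorticoids.

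The libraries held 22478011 to 24245330 reads counted in genes after IRI and 17421669 to 23061108 after sham surgery, and sham replicate 3 was the shallowest. Intercalated-cell markers summed to 21332 to 26723 CPM (counts scaled to library size) after IRI and 21739 to 27082 CPM in sham, while 8 of 10 epididymis markers lay below the filter on low counts and Lcn5, Lcn8 and Rnase9 had no read. Principal-cell markers were also abundant and summed to 6071 to 11820 CPM after IRI and 12241 to 13662 CPM in sham. Markers of macrophages and dendritic cells summed to 149 to 266 CPM after IRI and 46.3 to 245 CPM in sham, and lymphocyte markers to 7.01 to 27.8 CPM after IRI and 2.28 to 49.6 CPM in sham. Thick ascending limb markers summed to 879 to 1521 CPM after IRI and 1268 to 2165 CPM in sham, and proximal tubule, endothelial, fibroblast and neutrophil markers to at most 84.0 CPM in any library. In bulk RNA, fewer cells of a type and less RNA per cell cannot be told apart.

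All 10 clock genes passed the filter on low counts in these libraries. Per1 and Cry1 rose after IRI by edgeR's quasi-likelihood test at an adjusted p under 0.05, and 0 of the 10 fell. Across the 13881 genes tested, 24.2% were called higher, 21.2% were called lower and 45.5% were called in either direction, against 2 of 10 clock genes. Without sham replicate 1, 5 of the 10 were called (Per1, Per2, Cry1, Clock and Nr1d2), against 40.3% of all genes then tested. With any other library left out, 2 to 3 of the 10 were called, against 34.2% to 41% of all genes then tested. The standing of the clock genes against the background therefore changes with the libraries used. It also changes when the replicate number is used as a block, as given in the last paragraph. Over all genes, 3364 were called higher and 2948 lower, and this split was 2748 and 3789 with upper-quartile scaling and 2400 and 4337 with library size alone. Clock had an unadjusted p of 0.0232 by edgeR's quasi-likelihood test, and was called lower by DESeq2 but not by limma-voom or edgeR's exact test. The median log2 fold change was 0.09 over the 10 genes and 0.000381 over all tested genes. IRI and sham libraries did not overlap for Per1, Cry1 and Clock, against 56.4% of all tested genes. The IRI and sham ranges of the other 7 clock genes overlapped.

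**Figure D1:**
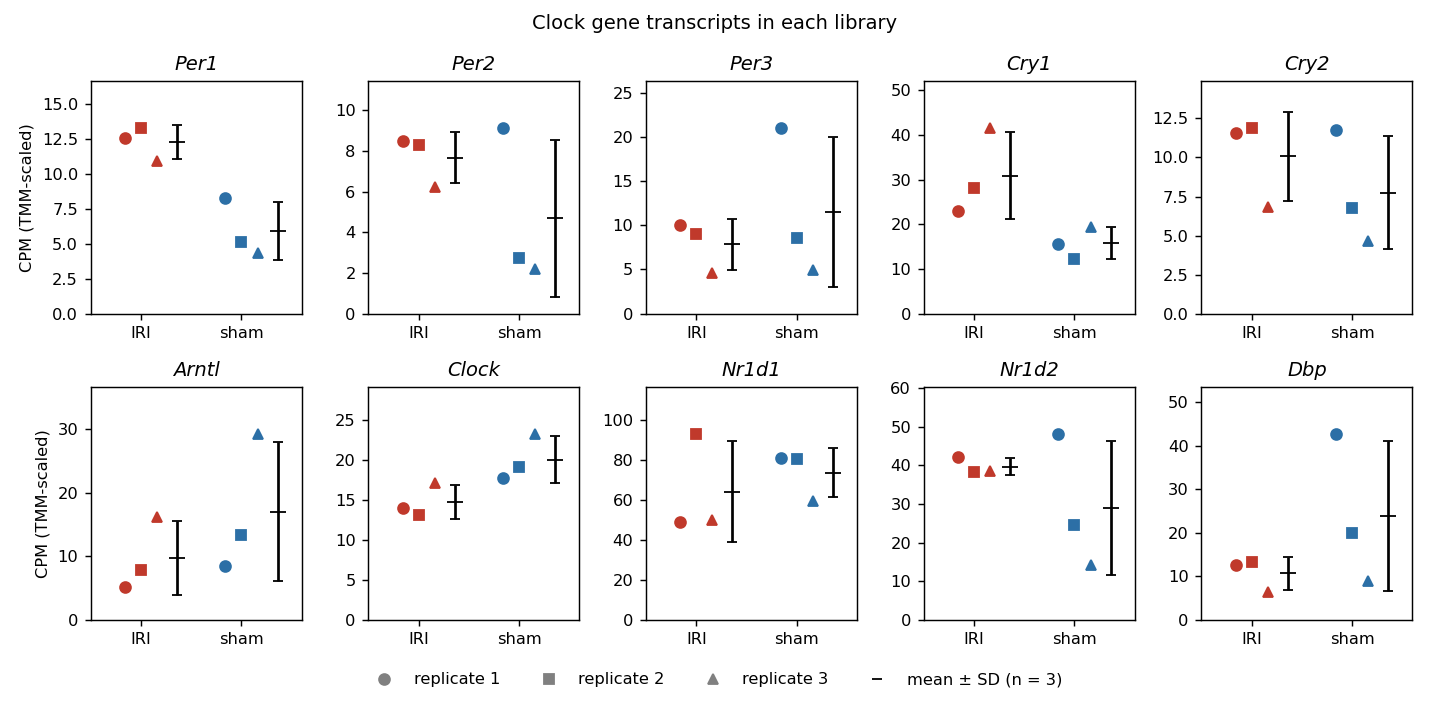
Level of each clock gene (vertical axis, CPM scaled by TMM, from 0) in the 3 IRI libraries (red, left) and the 3 sham libraries (blue, right), with replicates 1, 2 and 3 as circles, squares and triangles and the mean ± SD beside them in black. Per1, Cry1 and Clock have groups that do not overlap, while Dbp, Per2, Per3, Nr1d2 and Arntl spread 3.41-fold to 4.82-fold within the sham group.

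Among the repressors that close the loop, Per1 and Cry1 rose and the others were not called. Per1 (ENSMUSG00000020893), the Period gene that responds fastest to outside signals, had 12.6, 13.3 and 10.9 CPM in IRI replicates 1, 2 and 3, against 8.29, 5.15 and 4.35 CPM in sham replicates 1, 2 and 3. Every IRI library lay above every sham library, and the highest sham library was replicate 1. These levels rest on 226 to 291 reads per IRI library and 80 to 211 reads per sham library. Per1 averaged 12.3 ± 1.24 CPM after IRI and 5.93 ± 2.08 CPM in sham (SD, n = 3 each), a 2.06-fold difference (log2 1.04 ± 0.24 SE, adjusted p = 0.00749). The call held when any of the 6 libraries was left out, with adjusted p from 0.00204 to 0.0331.

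Cry1 (ENSMUSG00000020038), a cryptochrome that directly inhibits CLOCK and BMAL1, was the other clock gene called. It had 22.9, 28.1 and 41.6 CPM in IRI replicates 1, 2 and 3, against 15.7, 12.1 and 19.4 CPM in sham replicates 1, 2 and 3. Replicate 3 was the highest library of both groups, and the groups stayed apart. Cry1 averaged 30.9 ± 9.66 CPM after IRI and 15.7 ± 3.61 CPM in sham (SD, n = 3 each), a 1.97-fold difference (log2 0.98 ± 0.25, adjusted p = 0.0138). With any library left out the log2 value lay between 0.70 and 1.15 and the adjusted p between 0.00736 and 0.0447. In the same IRI libraries the summed principal-cell markers were lower than in every sham library. Most of that sum came from 1 marker, which was not called and whose groups overlapped. Of the 7 principal-cell markers tested, 2 were called lower and 0 higher. Of the 10 intercalated-cell markers, 3 were called lower and 0 higher, against 21.2% called lower over all tested genes. The part of either cell type in the values of Per1 and Cry1 was not tested.

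Promoter sequences were searched because CLOCK and BMAL1, DBP, the REV-ERB and ROR receptors, and CREB act through short, well-known motifs. RefSeq windows on GRCm38.p6, running from 250 bases before to 50 bases after a transcript start, were held for 9 of the 10 genes, 13 windows in all, with none for Per2. Both strands were searched for the E-box CACGTG, its variant CACGTT, the D-box TTATGNAA, the ROR element TAGGTCA and the CRE core TGACGT. These occur in 7.15%, 4.68%, 3.38%, 2.61% and 7.51% of all 32851 such windows. Counted by gene symbol, the shares are 8.09%, 5.44%, 3.99%, 2.97% and 8.37% of 27025. The windows of Per1 and Cry1 are shown because these genes were called, and those of Per3 and Arntl because they carry the D-boxes and the ROR element of the genes that varied between libraries. Capitals mark the motifs.
Per1, first start (chr11:69098699-69098998, plus strand): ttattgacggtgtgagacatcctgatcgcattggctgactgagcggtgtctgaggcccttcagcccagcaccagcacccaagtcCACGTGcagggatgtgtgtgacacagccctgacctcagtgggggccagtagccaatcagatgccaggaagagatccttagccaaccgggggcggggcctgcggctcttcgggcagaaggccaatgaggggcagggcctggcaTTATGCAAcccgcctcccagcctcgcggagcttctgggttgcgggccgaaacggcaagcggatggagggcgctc
Per1, further start (chr11:69099902-69100201, plus strand): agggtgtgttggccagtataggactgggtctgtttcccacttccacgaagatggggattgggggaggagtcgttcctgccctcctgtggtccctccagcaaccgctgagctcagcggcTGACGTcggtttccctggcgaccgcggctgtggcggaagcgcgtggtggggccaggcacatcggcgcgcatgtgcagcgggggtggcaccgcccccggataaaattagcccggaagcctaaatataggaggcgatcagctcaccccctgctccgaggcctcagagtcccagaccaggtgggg
Cry1 (chr10:85185005-85185304, minus strand): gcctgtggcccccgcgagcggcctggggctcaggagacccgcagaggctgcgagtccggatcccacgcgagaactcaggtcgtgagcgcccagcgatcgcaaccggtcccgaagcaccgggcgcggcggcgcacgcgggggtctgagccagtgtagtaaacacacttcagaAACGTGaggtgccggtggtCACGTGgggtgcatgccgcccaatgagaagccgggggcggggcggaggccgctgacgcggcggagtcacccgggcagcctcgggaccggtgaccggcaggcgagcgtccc
Per3 (chr4:151044616-151044915, minus strand): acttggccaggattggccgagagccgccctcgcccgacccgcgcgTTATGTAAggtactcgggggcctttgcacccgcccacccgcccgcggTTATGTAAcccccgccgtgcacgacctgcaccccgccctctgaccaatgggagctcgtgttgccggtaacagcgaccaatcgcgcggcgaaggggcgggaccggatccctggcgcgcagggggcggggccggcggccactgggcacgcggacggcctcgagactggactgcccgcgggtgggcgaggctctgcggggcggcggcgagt
Arntl (chr7:113207261-113207560, plus strand): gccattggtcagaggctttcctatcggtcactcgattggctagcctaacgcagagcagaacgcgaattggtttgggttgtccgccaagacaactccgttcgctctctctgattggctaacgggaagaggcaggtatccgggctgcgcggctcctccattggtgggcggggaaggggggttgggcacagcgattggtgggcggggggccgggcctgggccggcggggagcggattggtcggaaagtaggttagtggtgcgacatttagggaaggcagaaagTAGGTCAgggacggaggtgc
The E-box CACGTG stood in windows of Per1 and Cry1, and its variant in those of Cry1, Cry2 and Nr1d1. The D-box stood once in a Per1 window and in 2 copies in the Per3 window, the ROR element in 1 of the 2 Arntl windows, and the CRE core in the further Per1 window. No searched motif was found in the windows of Clock, Nr1d2 and Dbp, and sequence outside the windows was not searched. A match in these letters is a description of the sequence and does not show that a factor was bound.

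Per2 and Per3, the other Period genes, were not called. Per2 (ENSMUSG00000055866) had 8.49, 8.29 and 6.23 CPM in IRI replicates 1, 2 and 3, against 9.15, 2.74 and 2.18 CPM in sham replicates 1, 2 and 3. Sham replicate 1 lay above all IRI libraries and the other sham libraries lay below them. Its log2 fold change was 0.70 ± 0.52 (adjusted p = 0.316), and without sham replicate 1 it was 1.61 with an adjusted p of 0.00307 by the same edgeR test. It was 0.42 without sham replicate 2 and 0.33 without sham replicate 3 (adjusted p = 0.599 and 0.628). Per3 (ENSMUSG00000028957) had 10.01, 8.98 and 4.59 CPM in IRI replicates 1, 2 and 3, against 21.1, 8.52 and 4.95 CPM in sham replicates 1, 2 and 3. The log2 value of Per3 was -0.56 ± 0.56 (adjusted p = 0.458) and changed sign to 0.19 without sham replicate 1 (adjusted p = 0.726). Cry2 (ENSMUSG00000068742), the second cryptochrome, had 11.5, 11.9 and 6.81 CPM in the IRI libraries and 11.7, 6.79 and 4.68 CPM in the sham libraries, in replicate order. The Cry2 groups overlapped (log2 0.38 ± 0.35, adjusted p = 0.424). Left-out libraries moved its log2 value between 0.09 without sham replicate 3 (adjusted p = 0.86) and 0.78 without sham replicate 1 (adjusted p = 0.0786).

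The activators of the loop were both lower on average after IRI, and neither was called. Clock (ENSMUSG00000029238), whose protein pairs with BMAL1, had 14.0, 13.2 and 17.1 CPM in IRI replicates 1, 2 and 3, against 17.7, 19.2 and 23.3 CPM in sham replicates 1, 2 and 3. All IRI libraries lay below all sham libraries, with IRI replicate 3 just under sham replicate 1. Its log2 fold change was -0.44 ± 0.16 with an adjusted p of 0.0508, on the edge of the threshold. DESeq2 (adjusted p = 0.0387) and edgeR with upper-quartile scaling (0.0209) or library size alone (0.0107) called Clock lower. By the same edgeR test it was also called without IRI replicate 3 (log2 -0.56, adjusted p = 0.0277) and without sham replicate 1 (-0.55, adjusted p = 0.0389). It was not called without any of the other libraries, with adjusted p up to 0.158 without sham replicate 3. The replicate block of the last paragraph also gave a call for Clock.

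Arntl (ENSMUSG00000055116), which encodes BMAL1, had 5.12, 7.88 and 16.2 CPM in IRI replicates 1, 2 and 3, against 8.45, 13.4 and 29.3 CPM in sham replicates 1, 2 and 3. In both groups replicate 3 was the highest library and replicate 1 the lowest, a 3.17-fold range within IRI and a 3.46-fold range within sham. With group as the only term, the difference was not called against that spread (log2 -0.80 ± 0.60, adjusted p = 0.322). The log2 value shrank to -0.20 without sham replicate 3. It was -0.49 without IRI replicate 1 and -1.38 without IRI replicate 3. At each replicate number the IRI library lay below the sham library. A fit with the replicate number as a block called Arntl lower, as given in the last paragraph. The summed lymphocyte markers moved with Arntl within the groups: they were 7.01, 8.52 and 27.8 CPM in IRI replicates 1, 2 and 3, and 2.28, 18.2 and 49.6 CPM in sham replicates 1, 2 and 3. Macrophage and dendritic cell markers followed the same order, at 149, 198 and 266 CPM in the IRI libraries and 46.3, 86.2 and 245 CPM in the sham libraries. Of the 8 lymphocyte markers, Cd3e, Cd3d, Cd3g and Nkg7 lay below the filter. The part of these cells in the Arntl values was not tested.

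The REV-ERB receptors, which repress Arntl, differed from each other in their pattern. Nr1d1 (ENSMUSG00000020889) had the highest level per kilobase of all clock genes, 20.6 ± 8.01 RPKM after IRI and 24.4 ± 4.11 RPKM in sham (SD, n = 3 each). In CPM it stood at 49.1, 93.2 and 49.999 in IRI replicates 1, 2 and 3, against 80.8, 80.7 and 59.6 in sham replicates 1, 2 and 3. IRI replicate 2 lay above every other library and the remaining IRI libraries below all sham libraries. The log2 fold change of Nr1d1 was -0.20 ± 0.27 (adjusted p = 0.576), and without IRI replicate 2 it was -0.59 with a call (adjusted p = 0.0221). Without IRI replicate 1 it was -0.04 (adjusted p = 0.928). In the GENCODE M21 models, on a later build than that of the files, 8.55% of the exonic bases of Nr1d1 are shared with the opposite-strand gene Thra. Reads were counted without regard to strand, so reads from such stretches cannot be assigned.

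Nr1d2 (ENSMUSG00000021775) was nearly the same in all IRI libraries and widely spread among sham libraries. It had 42.1, 38.3 and 38.6 CPM in IRI replicates 1, 2 and 3, against 48.2, 24.6 and 14.1 CPM in sham replicates 1, 2 and 3. Its fold range was 1.10 within IRI and 3.41 within sham. The groups overlapped only through sham replicate 1, and the log2 value of 0.45 ± 0.41 (adjusted p = 0.417) became 1.00 with a call without that library (adjusted p = 0.0135). Without sham replicate 3 it was 0.09 (adjusted p = 0.826).

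Dbp (ENSMUSG00000059824), the D-box activator driven directly by CLOCK and BMAL1, had the widest range of the 10 genes. It had 12.6, 13.2 and 6.38 CPM in IRI replicates 1, 2 and 3, against 42.7, 20.0 and 8.86 CPM in sham replicates 1, 2 and 3. Sham replicate 1 held 4.82 times the level of sham replicate 3, and sham replicate 3 lay inside the IRI range. Dbp averaged 10.7 ± 3.77 CPM after IRI and 23.8 ± 17.3 CPM in sham (SD, n = 3 each). The log2 fold change was -1.16 ± 0.60 with no call (adjusted p = 0.172). It was -1.58 with a call without sham replicate 3 (adjusted p = 0.0295) and -0.46 without sham replicate 1 (adjusted p = 0.437). Dbp was also called lower with the replicate number as a block, as given in the last paragraph. In the GENCODE M21 models 18.0% of the exonic bases of Dbp are shared with the opposite-strand gene Sphk2, which stood at 22.9 to 32.3 CPM after IRI and 46.4 to 52.2 CPM in sham.

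**Figure D2:**
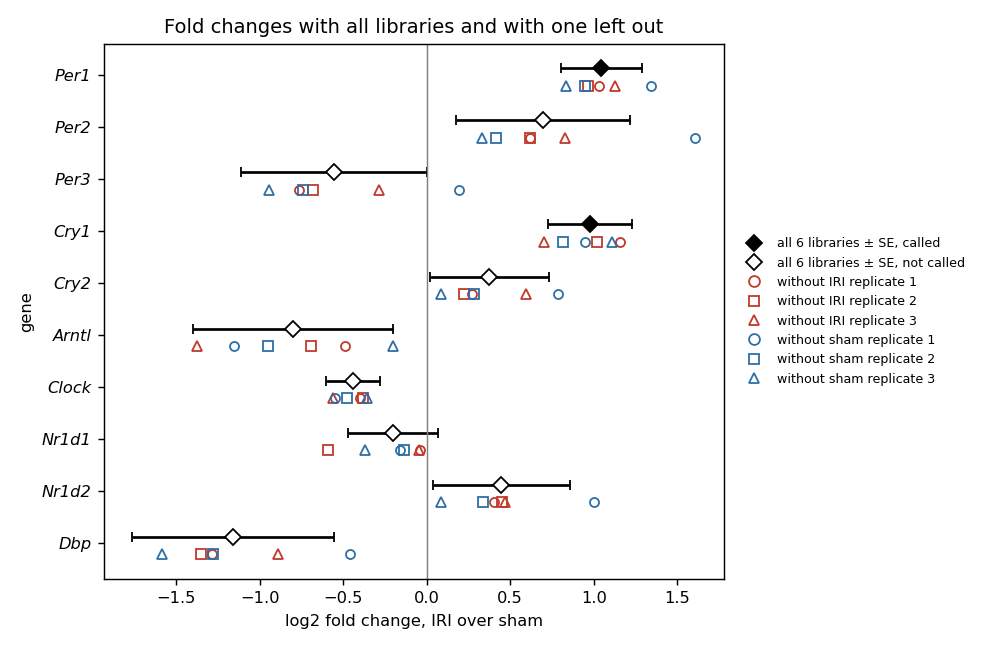
Fitted log2 fold change of IRI over sham (horizontal axis) for each clock gene with all 6 libraries (diamonds ± SE, filled where called) and with each library left out in turn (open red symbols for an IRI library, open blue symbols for a sham library). Per1 and Cry1 stay at 0.70 or above with any library left out, while leaving out sham replicate 1 moves Per2 to 1.61 and Per3 to 0.19.

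The sham libraries fell in a like order for most of the clock genes. Sham replicate 1 was the highest sham library for 7 of the 10 genes (Per1, Per2, Per3, Cry2, Nr1d1, Nr1d2 and Dbp) and the lowest for Arntl and Clock. Sham replicate 3 was the lowest for the same 7 genes and the highest for Arntl, Clock and Cry1. On the log2 scale, sham replicate 1 lay 1.24 above the sham mean for Per2, 1.12 for Per3 and 1.12 for Dbp, and at -0.81 for Arntl. Sham replicate 3 lay at -0.78 for Per2, -0.95 for Per3 and -1.14 for Dbp, and 0.97 above the mean for Arntl.

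Within IRI, replicate 3 stood apart for several of the same genes. It was the lowest IRI library for 5 of the 10 genes (Per1, Per2, Per3, Cry2 and Dbp) and the highest for Cry1, Arntl and Clock. It lay at -0.69 for Per3 and -0.67 for Dbp, and 0.89 above the IRI mean for Arntl. The SD of log2 CPM was 0.25 for Per2 and 0.08 for Nr1d2 within IRI, against 1.09 and 0.88 within sham. For Arntl it was 0.83 within IRI and 0.90 within sham. No test of a difference in spread was made.

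**Figure D3:**
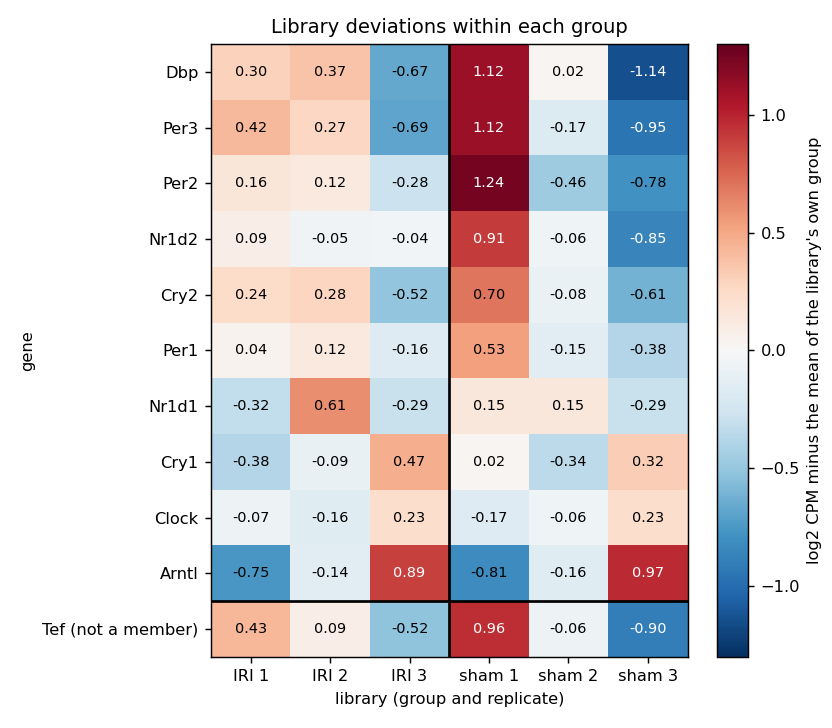
Deviation of each library from the mean of its own group in log2 CPM (colour and printed value) for the 10 clock genes and, below the line, Tef, a relative of Dbp, with the 3 IRI libraries on the left and the 3 sham libraries on the right. Sham replicate 1 is high for Dbp, Per3, Per2 and Nr1d2 and low for Arntl, and sham replicate 3 shows the opposite signs.

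This spread was wide for genes in these libraries, more so within sham than within IRI. The median SD of log2 CPM over the 10 clock genes was 0.44 within IRI and 0.77 within sham, against 0.21 and 0.17 over all tested genes. Within sham, 6 of the 10 lay above the 90th percentile of SD of all tested genes (Per2, Per3, Cry2, Arntl, Nr1d2 and Dbp), with Dbp at the 98.2 percentile. Within IRI only 1 of the 10 did, Arntl at the 95.7 percentile, which is the share that this percentile sets for all tested genes. Nr1d2 lay at the 11.9 percentile within IRI.

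Ratios of clock genes within a library do not depend on how libraries are scaled, and 4 of them were compared by exact two-sided permutation tests, for which 3 against 3 libraries cannot go below p = 0.1. The log2 ratio of Arntl to Dbp, per kilobase, was -1.21, -0.66 and 1.43 in IRI replicates 1, 2 and 3 and -2.25, -0.49 and 1.81 in sham replicates 1, 2 and 3. In both groups replicate 3 was the library in which Arntl exceeded Dbp. The group means were -0.15 ± 1.39 after IRI and -0.31 ± 2.04 in sham (SD, n = 3 each, exact permutation p = 1). Per1 to Per2 differed by 0.10 between the groups and Cry1 to Cry2 by 0.51, with overlapping libraries (exact permutation p = 1 and 0.5). Nr1d1 to Nr1d2 was 1.46 ± 0.57 after IRI and 2.34 ± 0.69 in sham (SD, n = 3 each, exact permutation p = 0.2).

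Per kilobase of gene length, Nr1d1 led the clock genes in both groups, and the order below it read differently. After IRI, Nr1d1 was followed by Cry1 at 10.1 ± 3.10 RPKM and Nr1d2 at 7.17 ± 0.45 RPKM, and Dbp stood at 3.44 ± 1.22 RPKM. The ranges of Cry1 and Nr1d2 overlapped there, and those of Nr1d2 and Dbp did not. In sham, Nr1d1 was followed by Dbp at 7.84 ± 5.68 RPKM, Arntl at 5.93 ± 3.76 RPKM, Nr1d2 at 5.38 ± 3.24 RPKM and Cry1 at 5.30 ± 1.20 RPKM (SD, n = 3 each). Each of these 4 overlapped with its neighbour in sham, so their order there is not resolved. Per1, Per2, Per3, Cry2 and Clock averaged 0.66 to 2.16 RPKM after IRI and lay below Cry1 in sham.

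The genes whose 6 values lay nearest to those of a called clock gene were found by the root mean square difference in log2 CPM, each gene centred on its sham mean, among 8154 genes. Nearest to Per1 were Rai2 (0.12) and Il10rb (0.12), which encodes a chain of the interleukin 10 receptor. Nearest to Cry1 were Id2 (0.10), an inhibitor of helix-loop-helix factors, and Bambi (0.11), a decoy receptor for TGF-beta ligands. For Dbp and Arntl, looked up after their values were seen, the nearest were Tef (0.32) and Adssl1 (0.27). The second nearest were Xpo1 (0.51) for Dbp and Trac (0.38) for Arntl.

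Among other transcription factors of the clock, Nfil3 and Bhlhe40 had the largest fold changes. Of 10 tested, 3 rose (Nfil3, Bhlhe40 and Rora), 1 fell (Rorb) and 6 were not called, with a median log2 of 0.07, and Arntl2 lay below the filter. That share is near the 45.5% called over all tested genes. Nfil3, which represses from D-boxes and so opposes Dbp, had 51.9, 40.6 and 43.4 CPM in IRI replicates 1, 2 and 3, against 3.14, 3.08 and 7.29 CPM in sham replicates 1, 2 and 3. Its groups were far apart, a 10.2-fold difference (log2 3.35 ± 0.34, adjusted p = 0.000237). Bhlhe40, also called DEC1, represses CLOCK and BMAL1 at E-boxes, and averaged 615 ± 129 CPM after IRI and 79.8 ± 21.5 CPM in sham (SD, n = 3 each). It was 7.70-fold higher after IRI (log2 2.95 ± 0.25, adjusted p = 9.69e-05).

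The ROR receptors, which activate Arntl at the element that REV-ERB proteins occupy, did not move together. Rora averaged 45.3 ± 9.89 CPM after IRI and 32.7 ± 1.33 CPM in sham (log2 0.47 ± 0.16, adjusted p = 0.0381). Rorb averaged 5.18 ± 1.12 CPM after IRI and 11.7 ± 5.45 CPM in sham (log2 -1.18 ± 0.33, adjusted p = 0.0196). The call of Rora was lost when any library other than IRI replicate 1 was left out (adjusted p up to 0.114), and with upper-quartile scaling, library size alone, limma-voom or limma on RPKM. That of Rorb was lost without IRI replicates 1 or 3 (up to 0.0701). Tef, a relative of Dbp, had 29.8, 23.5 and 15.4 CPM in IRI replicates 1, 2 and 3, against 64.4, 31.6 and 17.6 CPM in sham replicates 1, 2 and 3, with no call (adjusted p = 0.288). Like Dbp, it was highest in sham replicate 1.

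**Figure D4:**
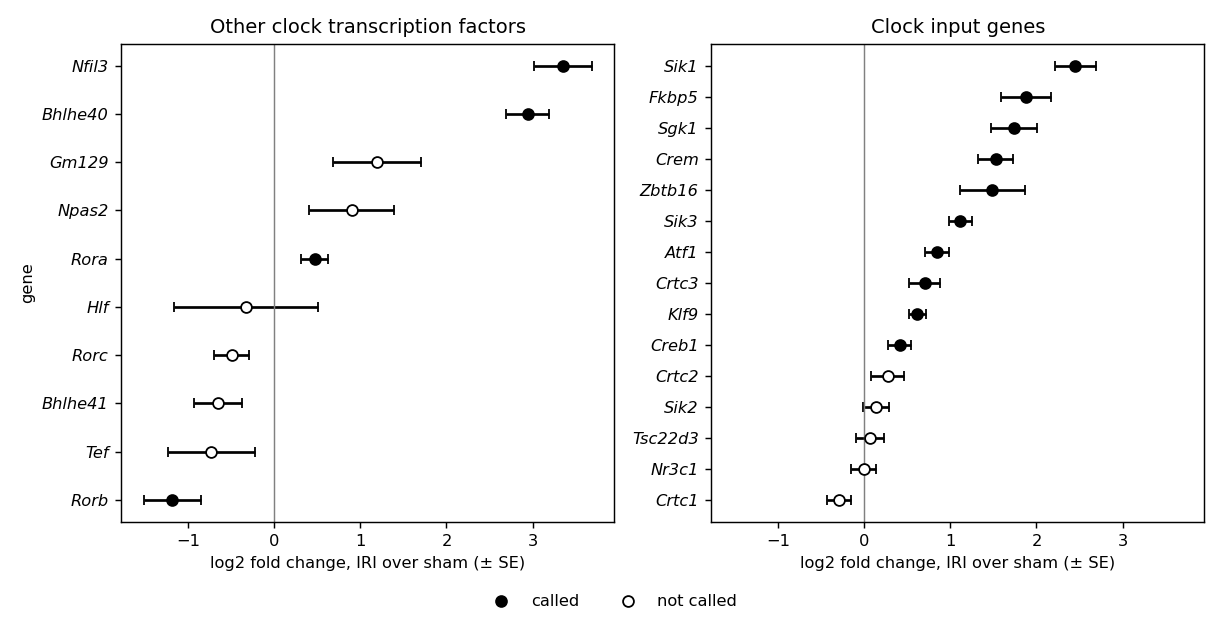
Fitted log2 fold change of IRI over sham (horizontal axis, ± SE) for other clock transcription factors (left) and for genes of CREB and glucocorticoid input (right), filled where called. Nfil3 and Bhlhe40 lie at 3.35 and 2.95, and 10 of the 15 input genes are called higher.

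Of 15 genes of the CREB and glucocorticoid routes into the clock, 10 rose, 0 fell and 5 were not called, with a median log2 of 0.70, against 24.2% called higher, 21.2% called lower and a median of 0.000381 over all tested genes. DESeq2 also called 0 of them lower, while Crtc1 was called lower with upper-quartile scaling or library size alone. Sik1, a kinase that CREB induces and that restrains further Per1 induction, averaged 13.4 ± 3.11 CPM after IRI and 2.44 ± 0.50 CPM in sham (log2 2.45 ± 0.24, adjusted p = 9.44e-05). Crem, which also makes a CREB-inducible repressor, rose as well (log2 1.53 ± 0.20, adjusted p = 0.000629). Among glucocorticoid-responsive genes, Fkbp5 averaged 237 ± 78.9 CPM after IRI and 64.5 ± 15.5 CPM in sham (log2 1.88 ± 0.29, adjusted p = 0.00223), and Sgk1 had a log2 value of 1.74 ± 0.27 (adjusted p = 0.00174). Fkbp5 and Sgk1 had the largest rises among such genes of the list, and others of them rose by less. Tsc22d3, another such gene, stood at 59.8 ± 7.52 CPM after IRI and 56.9 ± 12.4 CPM in sham (log2 0.07 ± 0.16, adjusted p = 0.755), and the receptor Nr3c1 at log2 -0.01 ± 0.15 (adjusted p = 0.980).

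Of 25 kinases, ubiquitin ligases and cofactors that act on clock proteins, 9 rose, 1 fell and 15 were not called, with a median log2 of 0.15. Over all tested genes 24.2% were called higher and 45.5% in either direction, so the share called in this list was near the background. Csnk1e and Csnk1d, casein kinases that phosphorylate PER proteins, were among those that rose. Csnk1e averaged 85.2 ± 21.4 CPM after IRI and 30.7 ± 3.47 CPM in sham (log2 1.47 ± 0.19, adjusted p = 0.000421), and Csnk1d had a log2 value of 0.83 ± 0.11 (adjusted p = 0.000501). Among the other casein kinase genes of the list, Csnk1a1 and Csnk2a2 rose, and Csnk2a1 and Csnk2b were not called. Prkaa1, a catalytic subunit of AMP-activated kinase, which marks CRY proteins for removal, rose (log2 1.04 ± 0.11, adjusted p = 0.000142), as did Gsk3b (log2 0.96 ± 0.13, adjusted p = 0.000458). Btrc and Fbxw11 encode related ubiquitin ligase subunits that recognise phosphorylated PER, and they moved in opposite directions. Btrc fell to 24.2 ± 0.97 CPM after IRI, against 40.9 ± 4.65 CPM in sham (log2 -0.76 ± 0.12, adjusted p = 0.0011). Fbxw11 rose to 51.8 ± 1.27 CPM after IRI, against 37.0 ± 2.35 CPM in sham (log2 0.49 ± 0.10, adjusted p = 0.00406).

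Of 12 genes listed as outputs of the clock in kidney or other tissues, 10 were tested, 4 rose (Wee1, Por and Cdkn1a among them), 3 fell (Nampt, Avpr1a and Scnn1a) and 3 were not called, against 24.2% called higher and 21.2% called lower over all tested genes. Cdkn1a, the cell-cycle inhibitor p21, averaged 807 ± 304 CPM after IRI and 40.3 ± 5.88 CPM in sham (log2 4.32 ± 0.32, adjusted p = 8.59e-05). Avpr1a, a vasopressin receptor, fell to 198 ± 29.7 CPM after IRI, against 425 ± 123 CPM in sham (log2 -1.10 ± 0.21, adjusted p = 0.00386), and the oxidoreductase Por rose (log2 1.05 ± 0.15, adjusted p = 0.000736). Avpr2 and Hsd3b6 lay below the filter. The sodium channel subunit Scnn1a (log2 -0.42 ± 0.12, adjusted p = 0.0201) lost its call without IRI replicate 1 or sham replicate 2 (adjusted p up to 0.0717).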

How the data were processed

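For each of the 6 libraries the authors deposited a table of raw counts, as whole reads for each gene. STAR, HTSeq, edgeR and the build mm9 are named in the submitters' processing notes, with versions not given in the sources used here. The file names state counting without regard to strand, and libraries were made with SMARTer chemistry, per the labels' protocols. The deposited RPKM values, made by the authors, carry symbols and gene lengths, per the file headers, and were used to compare levels between genes. Of all reads recorded, 49.1% to 50.7% fell in genes, and HTSeq's 5 summary entries were dropped before library sizes were taken.

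The test was the robust quasi-likelihood fit of edgeR 4.0.16 (R 4.3.3), with group as its only term, on the 13881 genes that filterByExpr kept, after TMM scaling. P-values were adjusted by Benjamini-Hochberg over all tested genes, and a gene was called under 0.05. SE values come from the F statistic. Alternatives used DESeq2 1.42.0, limma 3.58.1 with voom or on log2(RPKM + 0.1), edgeR's exact test, other scalings and filters, the replicate number as a block, and each library left out. The steps were tested on simulated data. Libraries were grouped by title; nothing in the labels says which pools shared a day or litter, and the p-values speak only of the variation among these pools.

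The clock genes, the other lists and the tests were chosen with earlier results of these data known. The text names all 10 clock genes, up to 4 called genes of each list by size of change with further members picked after their values were seen, and the 2 genes nearest to each called clock gene. Motifs were searched in RefSeq promoter windows on GRCm38.p6, which is not the build of the files. Values of 2 genes of these lists are not reported here.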

Additional observations from a re-analysis of the deposited data

How the results depend on the processing

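Per1 and Cry1 were called higher in each of the 16 alternatives run, and both kept their direction. With 1 library left out, clock genes called higher numbered 2 to 4 (4 without sham replicate 1) and those called lower 0 to 1. Instead of 0, 1 clock gene, Clock, was called lower with DESeq2 size factors, upper-quartile scaling, library size alone, no filter, the stricter filter and DESeq2. Relative to the scaling used, upper-quartile scaling shifted all log2 values by a median of -0.12 and library size alone by -0.20. Other clock factors called lower numbered 3 with either of these scalings and 2 with no filter, and 0 to 2 with 1 library left out; kinases and cofactors called lower numbered 2 and 4, and input genes called lower 1 and 1. Per3 ranged from -0.94 to 0.19 with 1 library left out and reversed without sham replicate 1 (0.19). Of the ratios, Arntl to Dbp ranged from -0.80 to 1.23 with 1 library left out (-0.62 without IRI replicate 3, -0.80 without sham replicate 1), Per1 to Per2 from -0.27 to 0.31 (-0.27 without sham replicate 1), Cry1 to Cry2 from 0.01 to 0.99 and Nr1d1 to Nr1d2 from -1.27 to -0.60. With 1 library left out, all genes called ranged from 2566 to 3172 higher and 2295 to 2734 lower, against 3364 and 2948 with all libraries; over the other alternatives they ranged from 2400 to 3402 higher and 2780 to 4337 lower. The cause of these changes was not tested.

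Replicate numbers are shared by IRI and sham samples in the titles, which do not say what a number marks. The titles also carry a serial number, in which the IRI and sham libraries of a replicate number are neighbours. That order is a hint of pairing, and no stated design gives one. Deviations from the group means correlated across all tested genes at 0.182, 0.0952 and 0.178 for numbers 1, 2 and 3. Every library correlated best with its own number, a further hint from the data, and number 2 missed the 0.1 set for pairing. Over the 10 clock genes, which are not independent, these correlations were 0.91, 0.49 and 0.92. With the replicate block, 5 of the 10 clock genes were called, against 46.6% of all tested genes, and 3 were called lower: Arntl (log2 -0.78, adjusted p = 0.00427), Clock (-0.44, adjusted p = 0.0294) and Dbp (-0.97, adjusted p = 0.0297), and other clock factors called lower numbered 2. The lowest clock gene count was 40 reads (Per2, sham replicate 3), where depth limits precision most.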
